A study of Mus musculus with 4 samples.

Results

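Chromatin bound by SHP in the intestine was mapped by immunoprecipitation and sequencing (ChIP-seq), and the peaks described here are those that lay deep inside genes. A peak of the wild-type list was taken where its summit fell inside a protein-coding gene, between the RefSeq start and end, and more than 5 kb from the nearest end of any protein-coding gene. This rule chose 628 of 5775 peaks (10.9%, 95% exact binomial interval 10.1 to 11.7), in 533 host genes. Of the remaining peaks, 4869 had a summit within 5 kb of a gene end and 278 lay farther out, between genes. The knockout list held 7 peaks, and 0 of them met the rule.

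The tissue was jejunum and ileum of SHP-KO mice and of wild-type C57BL/6 mice, aged 8 to 12 weeks. Both genotypes were fasted for 12 h and then given chow for 4 h, so fasted and fed states were not compared. Per the labels, 3 sets were analysed for each kind of sample and each set pooled tissue from 3 mice. The 4 samples are a pulldown with an SHP antibody and an input for each genotype. There was 1 peak list per genotype and the input samples were not analysed here, so no value below has a replicate error and no test was made. Cell types were not separated, and epithelium, muscle, nerve and immune cells all contribute to such tissue. Peak positions give no levels of marker genes, so the tissue label was not checked against them.

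SHP, encoded by Nr0b2, is an orphan nuclear receptor without a DNA-binding domain, which reaches chromatin through partners such as LRH-1 (Nr5a2) and recruits corepressors. In the intestine and liver it takes part in the feedback control of bile acid and lipid metabolism after a meal. A peak deep inside a gene can sit at an alternative promoter, where a shorter transcript starts, or at an intronic or exonic site away from any promoter. Mammalian promoters are often CpG islands, stretches rich in G, C and the CpG dinucleotide, and many hold GC boxes, which are read by SP and KLF factors.

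Many of the deep peaks sat at internal transcription starts of their hosts, and the starts below show what such sites looked like. Each sequence is a RefSeq window of assembly GRCm38.p6 (mm10 coordinates), from 250 bases before a listed start to 50 bases after its first base, written 5′ to 3′ on the strand of the gene. Capitals mark GC boxes (GGGCGG), ETS sites (CCGGAA), E-boxes (CACGTG) and nuclear receptor half-sites (AGGTCA) on either strand. The genes were taken from those named by the rule for hosts given in the methods. Osbp2 encodes an oxysterol-binding protein, and its window lies at chr11:3774619-3774918 on the minus strand. Tef encodes a clock-controlled PAR bZIP transcription factor, with its window at chr15:81811164-81811463 on the plus strand. Ptch1 encodes the Hedgehog receptor Patched, at chr13:63565686-63565985 on the minus strand. Tjp1 encodes the tight junction protein ZO-1, at chr7:65371195-65371494 on the minus strand. For Ptch1 and Tjp1 the printed start is the only one listed for the gene. Hdac7 encodes a class IIa histone deacetylase, at chr15:97831446-97831745 on the minus strand. Sgk1 encodes a serum- and glucocorticoid-regulated kinase, with the start inside a peak at chr10:21994416-21994715 and another start outside any peak at chr10:21985854-21986153, both on the plus strand.
Osbp2: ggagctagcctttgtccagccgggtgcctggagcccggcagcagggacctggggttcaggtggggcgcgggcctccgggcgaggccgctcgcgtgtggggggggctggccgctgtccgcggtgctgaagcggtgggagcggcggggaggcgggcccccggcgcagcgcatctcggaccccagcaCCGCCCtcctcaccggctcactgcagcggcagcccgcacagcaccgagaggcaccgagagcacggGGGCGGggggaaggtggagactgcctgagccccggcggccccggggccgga
Tef: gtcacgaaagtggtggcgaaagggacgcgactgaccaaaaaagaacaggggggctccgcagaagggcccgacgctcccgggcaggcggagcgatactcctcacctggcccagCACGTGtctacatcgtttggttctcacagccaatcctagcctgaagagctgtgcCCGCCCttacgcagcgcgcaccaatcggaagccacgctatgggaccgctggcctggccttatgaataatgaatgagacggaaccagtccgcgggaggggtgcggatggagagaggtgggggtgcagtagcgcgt
Ptch1: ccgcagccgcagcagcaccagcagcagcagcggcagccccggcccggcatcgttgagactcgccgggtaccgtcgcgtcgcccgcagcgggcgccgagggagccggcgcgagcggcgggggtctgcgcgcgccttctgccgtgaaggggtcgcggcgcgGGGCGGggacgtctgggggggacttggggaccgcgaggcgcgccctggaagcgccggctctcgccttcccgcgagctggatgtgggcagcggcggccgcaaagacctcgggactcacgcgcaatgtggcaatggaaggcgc
Tjp1: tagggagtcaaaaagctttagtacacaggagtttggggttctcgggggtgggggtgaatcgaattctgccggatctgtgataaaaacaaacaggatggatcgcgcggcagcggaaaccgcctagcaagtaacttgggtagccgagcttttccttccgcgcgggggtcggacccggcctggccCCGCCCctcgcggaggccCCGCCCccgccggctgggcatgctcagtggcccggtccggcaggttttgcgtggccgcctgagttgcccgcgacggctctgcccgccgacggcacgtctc
Hdac7: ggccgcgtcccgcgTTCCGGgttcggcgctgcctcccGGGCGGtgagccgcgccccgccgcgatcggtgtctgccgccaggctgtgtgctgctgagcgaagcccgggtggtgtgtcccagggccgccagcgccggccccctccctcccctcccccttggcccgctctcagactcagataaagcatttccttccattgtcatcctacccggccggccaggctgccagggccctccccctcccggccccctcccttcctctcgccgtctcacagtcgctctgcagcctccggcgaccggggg
Sgk1, start inside a peak: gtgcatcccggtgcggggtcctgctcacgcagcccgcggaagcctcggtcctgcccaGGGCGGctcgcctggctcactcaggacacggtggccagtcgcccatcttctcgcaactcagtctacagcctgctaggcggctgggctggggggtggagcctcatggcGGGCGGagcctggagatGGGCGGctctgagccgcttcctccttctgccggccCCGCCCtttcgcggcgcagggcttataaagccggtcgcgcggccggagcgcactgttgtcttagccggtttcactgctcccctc
Sgk1, start outside peaks: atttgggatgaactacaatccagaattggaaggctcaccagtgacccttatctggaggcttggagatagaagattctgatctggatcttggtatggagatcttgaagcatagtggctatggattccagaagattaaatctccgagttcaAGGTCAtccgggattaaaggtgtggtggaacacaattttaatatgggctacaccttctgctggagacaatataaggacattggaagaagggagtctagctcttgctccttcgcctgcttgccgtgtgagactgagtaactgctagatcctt
The Sgk1 window inside a peak held 4 GC boxes, while Osbp2 and Tjp1 held 2 each and the others 1 each. The second Sgk1 window, printed for contrast, held no GC box and a single half-site. It was chosen after its letters were seen, and a GC box is not absent from all such starts. The Sgk1 start at position 21993890, the start of Osbp2 outside peaks and that of Tef each held 1.

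Sgk1 had 6 listed starts, and 1 of them lay inside an SHP peak. The peak spanned chr10:21993914-21994963, with an enrichment value of 5.88 (the authors' own signal for a peak, whose scale is not stated), and its summit lay 194 bp upstream of the start at position 21994666. The GC content was 69.7% in the window of that start and ran from 45% to 49.7% at the 5 starts outside peaks. The nearest of these 5, at position 21993890 with 46.3% GC, lay only 24 bp from the edge of the peak, and its window runs into it. The start inside the peak lies 112482 bp from the outermost 5′ end of the gene, so that the peak fell near the 3′ end of a host 117720 bp long. Hdac7, likewise, had a peak over 2 listed starts, at 73.7% and 65.7% GC, and no peak over the starts at 60.7% and 54.7% GC. In Osbp2 the start printed above (77.7% GC) and the outer one (70.3% GC) both lay inside peaks, and the start at 57.7% GC did not. Tef went the other way, with 62.0% GC at the start inside a peak and 64.0% at the start outside.

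The deep peaks were similar in enrichment to the peaks at gene ends and lower in the authors' −log10 p. Their median enrichment value was 5.85 (interquartile range 5.09 to 6.62), against 5.64 (4.92 to 6.42) for peaks within 5 kb of a gene end and 5.56 for those between genes. The median −log10 p was 13.9 (11.6 to 16.3) for deep peaks, against 15.1 (12.8 to 17.8) near gene ends. The deep peaks were therefore slightly higher by one measure and lower by the other, with interquartile ranges that overlap widely. At or above the 75th percentile of enrichment value in the whole list (6.46) were 193 deep peaks (30.7%, exact interval 27.1 to 34.5), against 1184 peaks near gene ends (24.3%). At or above the median −log10 p of the list were 246 deep peaks (39.2%), against 2555 peaks near gene ends (52.5%). Deep peaks were also narrower, with a median width of 879.5 bp, against 1004 bp near gene ends. The strongest deep peak ranked 29 in the whole list, with an enrichment value of 9.40, against a highest value of 37.2 near gene ends. The intervals on shares cover counting error only, and the peaks of a list are not replicates.

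**Figure D1:**
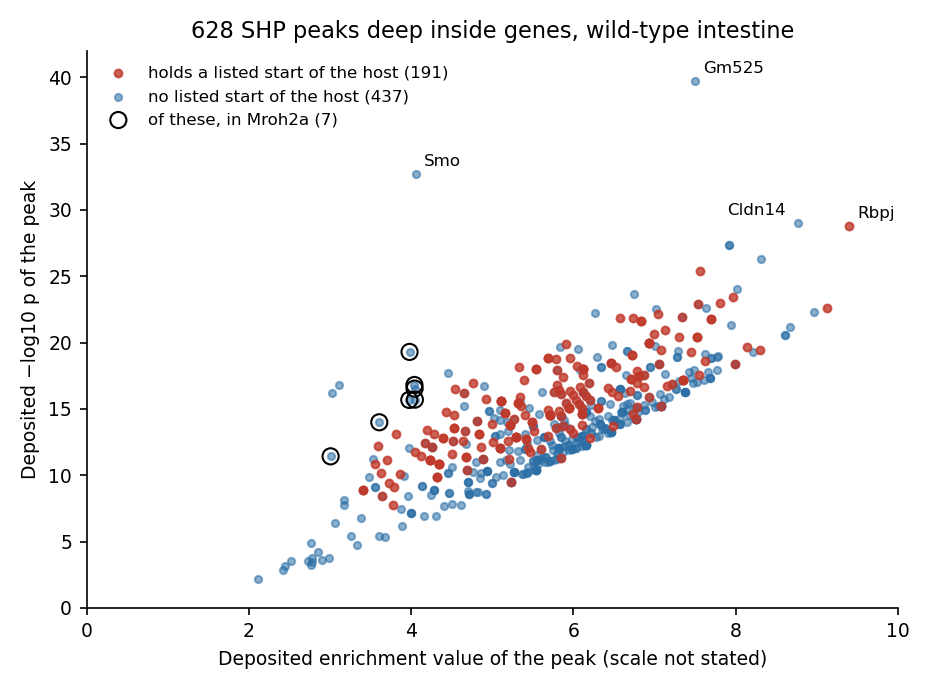
Deposited enrichment value (x axis, scale not stated) and −log10 p (y axis) of the 628 deep peaks, with each point a peak, 191 in red where the peak holds a listed start of its host and the others in blue, including those whose host has no listed start. The 7 circled peaks of Mroh2a have enrichment values of 3.01 to 4.05, and Gm525 has the highest −log10 p, 39.7.

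Of the 628 deep peaks, 501 lay in hosts that the table of starts covers, and 191 of these (38.1%, 33.9 to 42.5) held a listed start of their own host. Among peaks within 5 kb of a gene end and inside a covered host, 2698 of 3240 (83.3%) did. Over the whole list 62.3% of peaks held a start of some gene. In the start-holding deep peaks the median distance from summit to start was 123 bp (interquartile range 66.5 to 220), and 155 of 191 summits (81.2%) lay within 250 bp. These distances are limited by the choice of peaks that contain a start. Over all 501 covered deep peaks, 71 summits (14.2%) lay within 100 bp of a host start. Among the 191 start-holding peaks, the summit was upstream of the nearest host start in 56 (29.3%). Of the 501, 189 (37.7%) lay within 500 bp of a host start, 209 (41.7%) within 1000 bp and 231 (46.1%) within 5000 bp. A further 14 deep peaks held only a start of another gene, and all 14 overlapped a gene of a non-coding type. The rule fixes this, because deep peaks are at most 4957 bp wide. A protein-coding gene starting in such a peak would contain the summit or end within 5 kb of it.

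**Figure D2:**
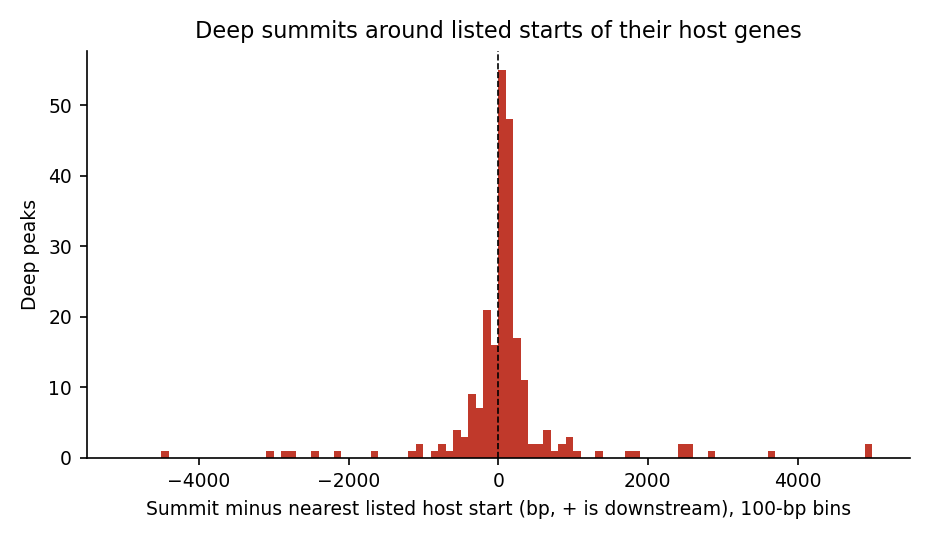
Number of deep peaks (y axis) by distance from the summit to the nearest listed start of the host (x axis, bp, positive downstream, 100-bp bins; 231 peaks within 5000 bp are shown). The tallest bin holds 55 peaks and lies directly downstream of the start.

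Seen from the starts, most internal starts had no SHP peak. Of 2151 listed starts more than 5 kb from every gene end, 219 (10.2%) lay inside a wild-type peak, in 187 of 1593 genes (11.7%). Of 19112 starts within 5 kb of a gene end, 4017 (21%) did. The internal starts inside peaks had the base composition of CpG islands. Windows that overlap were thinned to 1, which left 203 internal starts inside peaks, 1815 internal starts outside peaks and 3746 starts near gene ends inside peaks. Their median GC content was 67.3% (interquartile range 61.0 to 72.7) at internal starts inside peaks, against 51.3% (45.8 to 57.7) at internal starts outside peaks and 66.0% at starts near gene ends inside peaks. A CpG ratio (observed over expected from base content) above 0.6 was found in 85.7% of internal starts inside peaks, 18.8% of internal starts outside peaks, 90.1% of end starts inside peaks and 46.8% of all 20100 starts.

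The same contrast held within single genes. Of the 187 genes with an internal start inside a peak, 94 also had a listed start at least 1 kb away that lay outside every peak. In 78 of these 94 the start inside the peak had the higher GC content, with a median of 68.0% for the highest start inside a peak and 55.2% for the highest outside. Cacna1c, a calcium channel subunit named after its values were seen, had 81.3% GC at the start inside a peak and 51.3% at both of its starts outside. Gnas, which encodes the G protein alpha subunit Gs and is known for its nested alternative promoters, went the other way, with 64.3% inside and up to 81.7% outside; it was also chosen after its values were seen. A further 64 of the 187 genes, Ptch1 and Tjp1 among them, had a single listed start. For these the RefSeq gene reaches more than 5 kb beyond the only start listed. Whether a start was used in this tissue was not measured.

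Short sequence motifs were searched in the same windows, on both strands. The GC box GGGCGG was present in 79.3% of internal starts inside peaks, 27.2% of internal starts outside peaks, 77.9% of end starts inside peaks and 45.7% of all starts. The ETS site CCGGAA was in 20.2%, against 8.21% of internal starts outside peaks, 29.3% of end starts inside peaks and 18.1% of all starts. The TATA box TATAAA ran the other way, at 1.97% of internal starts inside peaks, 13.1% of internal starts outside, 5.05% of end starts inside and 12.9% of all. So did the GATA site AGATAA, at 2.46%, 11.1%, 3.10% and 9.80% in the same order. The E-box CACGTG was in 6.40% of internal starts inside peaks, 5.12% of those outside, 11.7% of end starts inside peaks and 7.71% of all.

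Motifs of SHP partners lay near or below their share over all starts at the internal starts inside peaks. The nuclear receptor half-site AGGTCA was in 10.3% of internal starts inside peaks, 18.7% of internal starts outside, 10.3% of end starts inside and 14.7% of all. The longer NR5A site TCAAGGTCA, which contains the half-site and is the form that LRH-1 reads, was in 0 of 203 internal starts inside peaks and in 0.328% of all starts. The HNF4 core CAAAGTCCA was in 0.493% of internal starts inside peaks and 0.458% of all. GC content differed between these sets as given above, and its part in the motif shares was not tested. The windows cover only bases around starts, and 65 of the 191 windows held the summit of their peak. The sequence under the other deep peaks was not used here.

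The peaks that held a start also differed in shape and place from those that did not. The groups were drawn by whether a listed start lies inside the peak, so wider peaks qualify more readily. The place of start-holding peaks likewise follows where listed starts lie, and positions of all internal starts along genes were not compared. Their median width was 1021 bp, against 787 bp for the 423 deep peaks without any listed start. The median −log10 p was 15.1 with a start, close to that of peaks near gene ends, and 13.3 without one. Enrichment values barely differed, with medians of 5.80 with a host start and 5.88 without any start. Start-holding peaks lay towards the 5′ side, with 140 of 191 (73.3%, 66.4 to 79.4) nearer the 5′ end of the host, against 143 of 310 (46.1%, 40.5 to 51.9) for deep peaks without a host start in covered genes. The median position was 35.1% of the way along the gene with a start and 53.1% (interquartile range 29.5 to 74.2) without one. The last 25% of the gene held 11 start-holding peaks (5.76%) and 73 peaks without a host start (23.5%). Deep peaks without a host start were thus spread along gene bodies, with a median of 17.6 kb to the nearest listed start of the host.

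The 533 host genes were long. Their median length was 65.0 kb, against 32.7 kb for the other 13276 genes that had sequence more than 5 kb from every end and so could have held a deep summit. Over all 13809 such genes the share of hosts was 3.86%. It was 1.38% for genes of 10 to 20 kb, 3.19% for 20 to 50 kb and 6.12% for 50 to 100 kb, and then stayed level, at 6.88% for 100 to 200 kb, 6.82% for 200 to 500 kb and 6.17% above 500 kb. Per length the order was reversed. Deep summits numbered 3.15 per Mb of deep sequence in the shortest class, 0.657 per Mb at 100 to 200 kb and 0.106 per Mb above 500 kb, against 0.735 per Mb over all. Long genes therefore held a deep peak more often but not in proportion to their length.

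**Figure D3:**
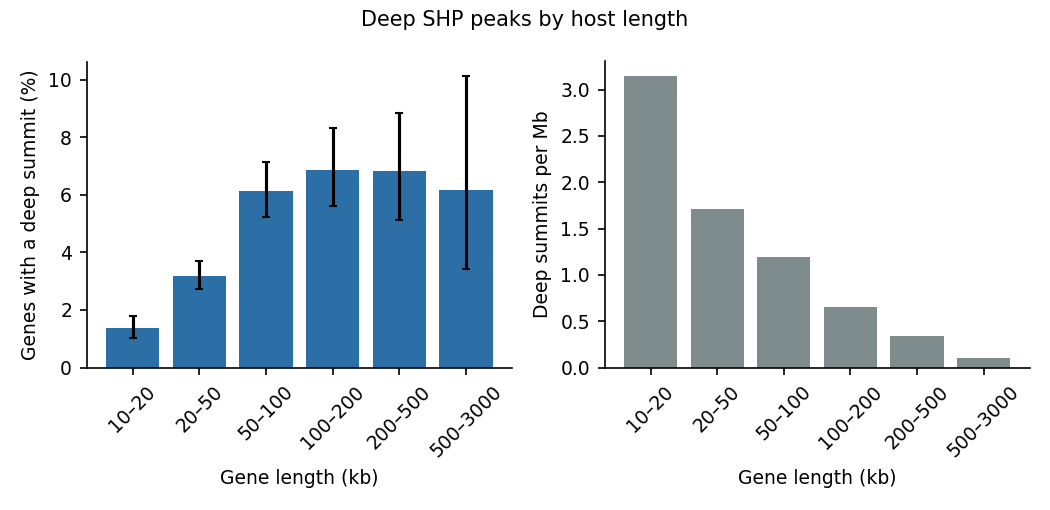
Left, percentage of protein-coding genes of each length class (x axis, kb) that hold a deep SHP summit, with exact 95% binomial intervals; right, deep summits per Mb of gene sequence more than 5 kb from every end. The percentage runs from 1.38% to 6.88%, and the density falls from 3.15 to 0.106 per Mb with gene length.

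Hosts carried a summit within 1 kb of an own end about as often as other genes did. Of the hosts, a summit at most 1 kb from an own end was found in 135 of 533 (25.3%, 21.7 to 29.2), against 3200 of the 13276 other genes (24.1%). At the outermost 5′ end, where the strand was known, the shares were 102 of 420 hosts (24.3%) and 2519 of 10545 other genes (23.9%). At the 3′ end they were 9 of 420 hosts (2.14%) and 105 of 10545 other genes (0.996%). Among hosts whose deep peak held an internal start, 40 of 187 (21.4%) also had a summit at the outermost 5′ end, against 62 of 233 hosts (26.6%) without such a start.

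Deep peaks were mostly single. Of the hosts, 463 had 1 deep peak, 57 had 2 and 13 had 3 or more. Gse1, a gene of 353 kb whose product acts with a histone deacetylase complex, had 9 deep peaks, with enrichment values of 3.26 to 5.89 and none at a listed start. Zfhx3, a large zinc finger and homeobox factor of 682 kb, had 5, all in the 3′ part of the gene, with values of 4.00 to 7.78. One of the Zfhx3 peaks, at chr8:108714339-108715585, held a listed start and had a value of 4.89. Plec, which encodes the cytolinker plectin of hemidesmosomes and intermediate filaments, had 4 broad peaks of 1437 to 4044 bp with values of 4.69 to 6.47. C77080 had 3, of which 2 held separate listed starts, with values of 6.58 to 7.05. Neighbouring deep summits of the same host were a median of 6382 bp apart over 96 gaps, and 44 gaps were under 5 kb.

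**Figure D4:**
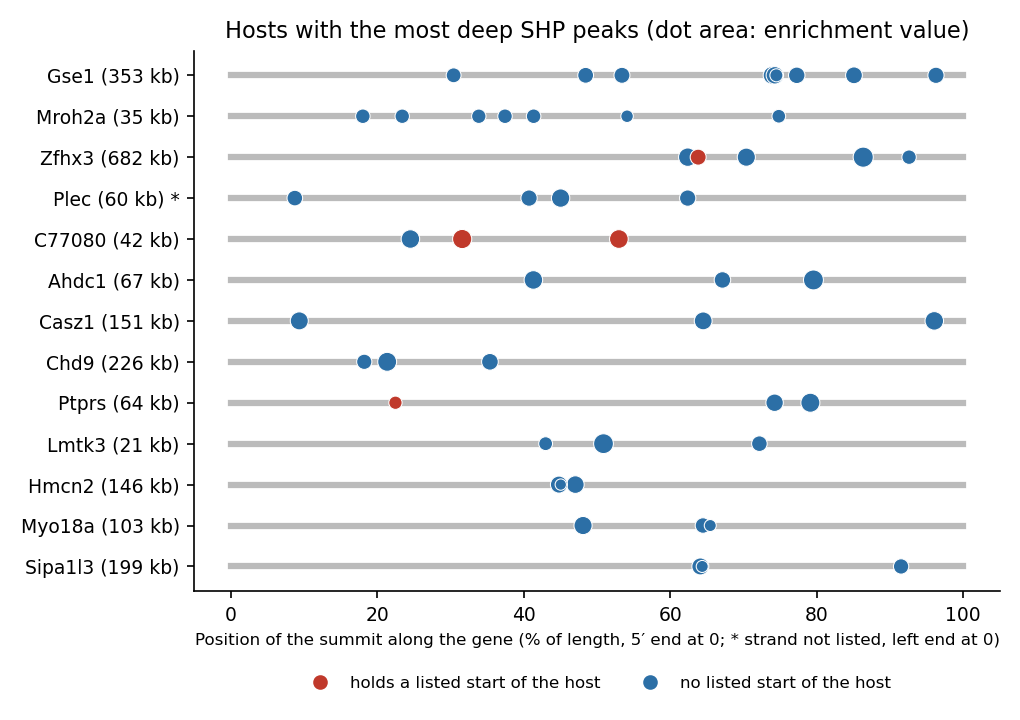
Position of each deep summit (dots, area proportional to the enrichment value) along the 13 hosts with 3 or more deep peaks, as a percentage of gene length from the 5′ end (the left end for Plec, whose strand the tables used do not list). Red dots hold a listed start of the host, as in C77080, Zfhx3 and Ptprs, and the 7 peaks of Mroh2a lie between 18% and 74.8% of its length.

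Mroh2a stood apart. Its 7 deep peaks lay within 20055 bp of a host 35.3 kb long, which encodes a HEAT-repeat protein. The enrichment values were low for this list, from 3.01 to 4.05 with a median of 3.98, while −log10 p ran from 11.4 to 19.3 with a median of 15.7. A further 3 wild-type summits there lay within 5 kb of an end of Mroh2a or of Hjurp, which overlaps it, which made 10 peaks, covering 10960 bp, in the gene and its 5-kb flanks. The ratio of −log10 p to enrichment value had a median of 2.34 over all deep peaks, and at Mroh2a it reached 4.85. The highest ratio among deep peaks was at Smo, the Hedgehog signal transducer, with 8.07 (chr6:29747677-29748659, enrichment value 4.05 and −log10 p 32.7). It was followed by 2 peaks of Mid1 on the X chromosome, a gene that in laboratory mice spans the pseudoautosomal boundary (5.40 and 5.34), and by Gm525 (5.29). Gm525 also had the highest −log10 p, 39.7. Smo, Mid1 and Gm525 were chosen after their values were seen. Reads and input were not used here, and whether sequence present in several copies raised −log10 p at Mroh2a, Smo and Mid1 was not tested.

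The strongest deep peak by enrichment value was at Rbpj, the DNA-binding factor of Notch signalling. It spanned chr5:53588954-53591280 with a value of 9.40 and −log10 p of 28.8, and held a listed start 1137 bp downstream of its summit, 34567 bp inside the gene. Zfp119b, a zinc finger gene, followed with 9.13 at a listed start. The highest of Hdac7's peaks, at chr15:97824887-97826328, had 8.97 and no listed start, and its second peak, over the start printed above, had 6.71. Cldn14, a tight junction claudin, had 8.76 at chr16:93992780-93993559, 15587 bp from the nearest gene end. Nfia, a transcription factor of the nuclear factor I family, had 8.67 at chr4:97777125-97778963, 200403 bp from a gene end. Rere, a corepressor of the atrophin family, and Zfp978 each had 8.61. Usp42, a deubiquitinase, had 8.32, Osbp2 8.31 and Hoxb3, a homeobox factor of the trunk, 8.22. Arhgap29 had 8.14 at a listed start, and Msra, which repairs oxidised methionine, had 8.02. Tiam1, Golga7b and Fbxo31 shared the same pair of values, 8.0 and 18.4, as peaks of this list often do. Of these 15 peaks, 5 held a listed start of the host, while Zfp978, Usp42, Hoxb3 and Msra have no listed start and could not be scored.

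Gene groups were then read against the share of 3.86% over all 13809 genes. Of 16 lists, 11 lay above that share and 4 had no host at all. The exact interval lay above the background share for 3 lists, those of intestinal transcription factors, epithelial junctions and brush border, and nuclear receptors. With only peaks whose −log10 p reached the median of the list, each of these 3 lists had 3 hosts, against 5, 7 and 6 in that order. The transcription factors also moved to 8 hosts with a limit of 2 kb and to 3 with a limit of 10 kb or with ends of genes of every type, and the junction list moved to 4 without the start-holding peaks. The lists differ in gene length, which moves the share as shown above, and 10 of 16 also lay above the density of 0.735 summits per Mb. No list is singled out on these counts, and the part of gene length in them was not tested.

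**Figure D5:**
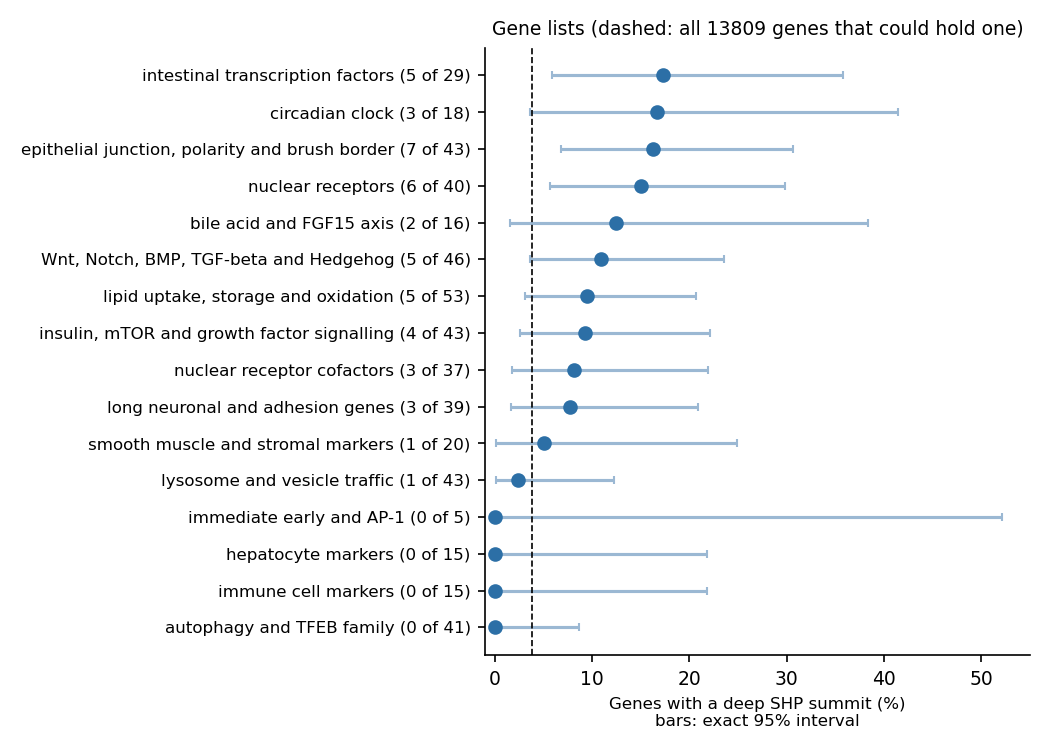
Percentage of the members of each gene list that hold a deep SHP summit, among members long enough to hold one (counts in the labels), with exact 95% binomial intervals; the dashed line is the 3.86% over all such genes. Intestinal transcription factors are highest at 17.2%, and 4 lists are at 0.

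Nuclear receptors, the family that SHP belongs to and acts on, held deep peaks in 6 of 40 genes (15%, 5.71 to 29.8), and 0 of these genes had one at an own listed start. Nr5a2, which encodes LRH-1, had peaks at chr1:136948338-136949303 and chr1:136952689-136953334, with enrichment values of 7.70 and 7.08. The second of them had its summit 616 bp downstream of a listed start that lay outside the peak. Rora, a receptor of the clock and of lipid metabolism, had 7.70, at chr9:69289294-69291346. Nr1i2, which encodes the xenobiotic receptor PXR, had 6.57 at chr16:38288958-38289360. Ppard (5.96), Rarg (5.80) and Nr4a3 (5.41) made up the rest. Cofactors held them in 3 of 37 genes (8.11%), which were Hdac7, its relative Hdac5 (6.11) and Ncoa4, the ferritin receptor of ferritinophagy (5.10, at a listed start). The corepressors and coactivators of the list were otherwise without one.

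Transcription factors of the intestinal epithelium held deep peaks in 5 of 29 genes (17.2%, 5.85 to 35.8). Among them, Bcl6, a repressor, had 6.07 and Gata4, a factor of the proximal small intestine, had 5.61. Prdm1, which encodes the repressor Blimp1 of the suckling gut, had 4.32 at a listed start. Clock genes had 3 of 18 (16.7%), namely Rora, Tef (7.70) and Arntl, which encodes the clock activator BMAL1 (4.64). The peaks of Tef and Arntl held internal starts.

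The list of Wnt, Notch, BMP, TGF-beta and Hedgehog genes had 5 of 46 (10.9%), and Rbpj and Ptch1 led it. It does not hold every gene of these pathways. Smo, Wnt3, Wnt7a and Wnt9b, chosen after their values were seen, were hosts too and are not counted in it. Ptch1 had 7.45 at its only listed start, printed above, and 7.01 at a second site, chr13:63567793-63568371. Lrp5, a Wnt coreceptor, had 6.94, Bmp7 had 5.80 and Smad7, an inhibitory SMAD, had 4.94. In the insulin, mTOR and growth factor list 4 of 43 genes were hosts (9.30%), with Akt2, an insulin-responsive kinase, at 6.21, Sgk1 at 5.88, Tsc2, an inhibitor of mTORC1, at 5.38 and the insulin receptor Insr at 5.15. The peaks of Akt2 and Sgk1 held internal starts.

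Structural genes of enterocytes held them in 7 of 43 members (16.3%, 6.81 to 30.7). Tjp1 had 6.93 at chr7:65370423-65371619, over its only listed start, printed above, 156606 bp from the outermost 5′ end of the gene. Plec followed with up to 6.47, and Espn, an actin-bundling protein of microvilli, had 6.16. Myo7b, a brush border myosin, had 5.98, Cgnl1, a junction protein, 5.71 and Myo1c 3.73. In lipid handling 5 of 53 genes were hosts (9.43%, 3.13 to 20.7). Acacb and Acaca, the acetyl-CoA carboxylases that make malonyl-CoA, both held deep peaks, with 7.38 and 5.85 at Acacb and 6.35 at Acaca. The stronger Acacb peak, at chr5:114165704-114166170, had its summit 313 bp from a listed start that it did not cover. Scarb1, the HDL receptor SR-BI, had 6.69 at chr5:125292451-125292765, Lrp1, a lipoprotein receptor, had 6.14, and Osbpl9, another oxysterol-binding protein, had 4.29 at a listed start. Of the bile acid and FGF15 axis 2 of 16 genes (12.5%) were hosts, Nr5a2 and Nr1i2, both counted above.

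Other lists had few or none. Autophagy and TFEB family genes had 0 of 41 (upper exact limit 8.60%), and lysosome and vesicle genes had 1 of 43 (2.33%), the Rab GTPase activator Tbc1d1 (5.20, at a listed start). The low count holds for the names on that list only. Sec31a, Clta and Ap1b1, vesicle coat genes chosen after their values were seen, were hosts and are not counted in it. Among 39 very long neuronal and adhesion genes, with a median length of 1212 kb, 3 were hosts (7.69%), Auts2 (6.35), Dab1 (5.22, at a listed start) and Ptprd (3.97). That is 0.0562 summits per Mb, against 0.735 over all. The Ptprd peak, at chr4:76449379-76450680, was the deepest, 508524 bp from the nearest gene end. Smooth muscle and stromal markers had 1 of 20, the tropomyosin Tpm1 (4.96). Immune markers had 0 of 15, hepatocyte markers 0 of 15 (each with an upper exact limit of 21.8%) and immediate early genes 0 of 5 (52.2%). The immediate early list has 27 genes, of which only these 5 were long enough to be counted. The share of 3.86% over all genes lies below each of these upper limits. A count of 0 holds for the listed names only. Cd247 and Lsp1, genes of immune cells chosen after their values were seen, were hosts and are not in the immune list.

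Non-coding genes lay under 81 deep peaks (12.9%, 10.4 to 15.8), against 750 peaks near gene ends (15.4%). Most were long non-coding RNAs, under 71 deep peaks (11.3%) and 667 peaks near gene ends (13.7%). A small RNA gene lay under 3 deep peaks. At Trim7, which encodes a tripartite motif ubiquitin ligase, a peak of 239 bp at chr11:48834337-48834575 covered the transfer RNA gene n-TAtgc9, with an enrichment value of 7.64 and −log10 p of 22.6. At Mast3, which encodes a microtubule-associated kinase, a peak of 2158 bp at chr8:70796612-70798769, with a value of 6.47, covered the microRNA gene Mir7240. Its mature microRNAs lie at chr8:70798135-70798155 and chr8:70798172-70798192 on the plus strand, and are printed to show the gene under the peak, with the seed (bases 2 to 8) in capitals.
mmu-miR-7240-5p: uUGGAGAGgaccgccgucgga
mmu-miR-7240-3p: cGCCGUUGguccucuccaaca
At Epc1, which encodes a subunit of the NuA4 acetyltransferase complex, a peak with a value of 6.75 covered Mir1893. Whether the small RNAs were made was not measured.

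No deep peak was shared with the knockout. Of the 628 deep peaks, 0 overlapped a knockout peak (upper exact limit 0.586%), and 0 had a knockout summit within 10 kb. Over the whole wild-type list 3 of 5775 peaks (0.0519%) overlapped one, and near gene ends 2 of 4869 (0.0411%), so a count of 0 is nothing particular to deep peaks. The knockout list is short and was made with another filter, and an empty site in it does not tell whether the wild-type peak there depends on SHP. On the chromosomes other than Y, the deep share of wild-type peaks ran from 5.5% on chromosome 19 to 16.9% on chromosome 18. Chromosome Y had 4 peaks, of which 0 were deep. The limit of 5 kb did not fall on a gap in the data. The closest peaks inside it were at Fbxo43 (5004 bp from an end, enrichment value 6.93) and Nfatc1 (5025 bp, 5.27), and those just short of it at Zc3h14 (4993 bp, 6.93) and Gramd1a (4974 bp, 5.50). The median enrichment value was 5.95 over the 64 peaks at 5 to 6 kb and 5.93 over the 70 at 4 to 5 kb. A host start was held by 31.3% of the peaks at 5 to 6 kb and by 45.7% of those at 4 to 5 kb. These shares are over all peaks, whether or not the host has a listed start.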

How the data were processed

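Peak lists of SHP ChIP-seq were used for wild-type and SHP-knockout intestine, 1 per genotype. CASAVA 1.4, BWA and mm10 are named in the submitters' processing notes. Which program called peaks and with what settings, whether input was used, how the 3 sets were combined and how deep each was sequenced is not given in the sources used here. Depth is therefore unknown and no interval rests on reads. The deposited lists are in narrowPeak layout with no header: a score, an enrichment value (the deposited signal column, the authors' own value per peak, scale not stated), −log10 p and −log10 q, the last of these deposited by the authors and not reported here. By its name the wild-type list passed an irreproducible discovery rate (IDR) filter of 0.05 and the knockout list holds overlapping peaks, so values were not compared between genotypes.

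Summits were converted to 1-based positions and set against 49943 RefSeq genes of assembly GRCm38.p6, of which 21887 are protein-coding. Listed starts came from the RefSeq promoter table, which is not complete, holds no row of chromosome 18 and covers 420 of the 533 hosts. A peak held a start where the start lay inside the peak. Windows whose starts lie close together were counted once. Shares carry exact (Clopper-Pearson) 95% intervals for counting error only. No test, replicate error or set test was made, because a list is 1 sample and its peaks are not replicates. Annotation steps were tested on simulated peaks with known positions.

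The peaks and the 16 gene lists (629 names, 0 unmatched) were chosen with earlier results of these data known. A further list and some members of the others are not reported here. Named hosts are those of the 15 strongest deep peaks by enrichment value, the 12 hosts with the most deep peaks, up to 3 members per list, the deepest peaks, those at small RNA genes and those beside the 5 kb limit. Further members of lists and genes said to be chosen after their values were seen fall outside that rule. Motif search under the peaks was planned and not run, since it needs genome sequence, and start windows were searched in its place. Python 3.11.15, pandas 2.3.3 and scipy 1.17.1 were used.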

Additional observations from a re-analysis of the deposited data

How the results depend on the processing

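Moving the limit to 2 kb gave 960 deep peaks in 853 hosts, and 10 kb gave 405 in 338 hosts. Keeping only peaks whose −log10 p reached the list's median left 246 in 231 hosts, with a median enrichment value of 6.78 and a median −log10 p of 17.2. Such a filter raises those medians by its construction. A summit lay at an own end in 14.3% of these hosts, and 51.0% of the deep peaks of covered hosts held a host start. The filter also removed summits at gene ends, so fewer could be counted. The share of other genes was not computed under it. Without the peaks that hold a host start, an alternative chosen after the data were seen, 437 deep peaks in 365 hosts were left. Their median −log10 p was 13.2. An end of 5 kb gave 34.7% of hosts with an end summit, against 29.8% of the other genes that could hold a deep summit. A summit within 100 bp of a start, also chosen afterwards, gave 14.2%. The cause of the other shifts was not tested. Curated gene names, ends of genes of every type and leaving out Mroh2a moved none of these results beyond their limits, and the count shared with the knockout list was 0 under each alternative run. Of 112 list counts under the alternatives, 89 stayed within 1.5 times. These include counts that stayed at 0 in the 4 lists with no host. Mroh2a is in none of the lists, so leaving it out could not change a count. Motif windows of 50 bp around the summit were not run, since they need genome sequence. No paired analysis was possible because the labels give no replicate numbers and no test was made. Depth is unknown, so sites missing from either list may be undetected.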
